A study of Mus musculus with 9 samples.

Results

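The lysosomal proton pump, its accessory proteins, the cathepsins and the lysosome-associated membrane proteins were followed at the transcript level in 3 sorted populations of mouse colon epithelium. Members were taken by gene symbol alone: symbols beginning with Atp6v0, Atp6v1, Atp6ap1 or Atp6ap2, symbols made of Cts and 1 further letter, and Lamp1, Lamp2 and Lamp3. The rule found 47 of the 24421 genes in the deposited table, and no measured value entered it. Of the 47 members, 38 were above 0 in at least 1 library and 30 reached 1 TPM (transcripts per 1000000, a level per transcript length) in at least 3 libraries, the filter for testing.

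The goblet-enriched population was sorted as Epcam+, Cd44+ and Kit+ and comes from the crypt bottom. The enterocyte-enriched population was Epcam+, Cd44-negative and Cd66a-high, from the crypt top, where Cd66a is the product of Ceacam1. The Lgr5-enriched population was Epcam+, Cd44+ and Kit-negative, again from the crypt bottom. Each population has 3 libraries, and per the series text the 9 libraries come from 3 adult female C57BL/6J mice with no treatment or engineered allele named. Crypts were freed with EDTA and digested with DNase I and collagenase, and dead cells, doublets and cells with Cd3, Cd16/Cd32, Cd31 or Cd45 were gated out. The populations are enriched by surface antigens and not pure, so fewer cells of a type and less RNA per cell cannot be told apart in any of the values below.

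Assigned reads, recovered from the deposited values as lower bounds, ran from 11164348 to 26781805 per library, so that 1 read in a transcript of 1 kb was worth 0.0958 to 0.208 TPM. The sorted identities were checked against their markers. Muc2, the main colonic mucin, was at 9639 to 13120 TPM in goblet-enriched, 975 to 1326 in enterocyte-enriched and 39.1 to 68.7 in Lgr5-enriched libraries, so goblet transcripts were present at the crypt top too. Car4, a colonocyte carbonic anhydrase, was at 0.270 to 32.2 TPM in goblet-enriched, 330 to 1992 in enterocyte-enriched and 5.87 to 12.8 in Lgr5-enriched libraries. Lgr5 itself was at 1.01 to 7.72, 0 to 0.333 and 31.4 to 44.1 TPM in the same order of populations. The library labelled enterocyte-enriched replicate 1 goes against its female label, with Xist at 0.128 TPM against 110 to 204 elsewhere and 4 Y-linked genes at a summed 139 TPM against at most 0.325. Lgr5-enriched replicate 1 had 49050 TPM of the ribosomal precursor Rn45s, against 2356 to 6009 in the other libraries. Summed macrophage markers (13 genes, 5 past the filter) were at 99.2 to 105 TPM in goblet-enriched, 104 to 437 in enterocyte-enriched and 114 to 216 in Lgr5-enriched libraries. Such sums are not a measure of macrophage RNA. Lgr5-enriched replicate 1 reached 216 TPM with Lyz2, Tyrobp and Csf1r listed at 0 and Cd68 at 11.7 TPM. Beyond the values given with Ctss, the part of macrophage transcripts in the results was not tested.

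The V-ATPase is a rotary pump whose cytosolic V1 sector hydrolyses ATP and whose membrane V0 sector moves protons into lysosomes, endosomes and secretory vesicles. Several subunits exist as isoforms from separate genes that steer the pump to different membranes. Cathepsins are proteases, most of them made as inactive precursors and matured in the acid lumen, and LAMP glycoproteins line the inner face of the lysosomal membrane. In absorptive epithelia these compartments degrade endocytosed material, and in secretory cells the pump also acidifies granules.

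The highest member over all 9 libraries was Lamp1, with a mean of 459 TPM, followed by Atp6ap2 at 332, Ctsd at 317 and Ctss at 261 TPM. The lowest member tested was Atp6v1g2 at 4.73 TPM. Each comparison was tested with limma on log2(TPM + 1) over all 12888 genes that passed the filter, with a call at a Benjamini-Hochberg adjusted p below 0.05. In goblet-enriched versus Lgr5-enriched cells, 5 of the 30 members tested were called higher, where 10.7% of all tested genes were, and 5 lower, where 23.6% of all genes were. In enterocyte-enriched versus Lgr5-enriched cells, 15 members were called higher, with 12.0% of all genes called higher, and 1 lower, with 37.6% of all genes called lower. In goblet-enriched versus enterocyte-enriched cells, 2 were called higher, with 28.2% of all genes called higher, and 10 lower, with 15.9% of all genes called lower. The median log2 fold change of the 30 members was 0.09, 0.39 and -0.23 in these comparisons, beside -0.26, -0.35 and 0.20 over all tested genes. The moderated F test over the populations called 16 of the 30, beside 63.1% of all genes. The comparisons share libraries, so their counts are not independent of each other, and their p-values measure the spread between libraries.

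The medians of all genes lie away from 0, and the scaling of the libraries decides how far. With median-of-ratios scaling they became -0.05, 0.02 and 0.04, and members called were 9 higher and 5 lower, 20 higher and 0 lower, and 1 higher and 14 lower. Over all genes the same scaling gave 1839 higher and 1549 lower calls in goblet-enriched versus Lgr5-enriched cells, where the deposited TPM gave 1384 and 3039. It gave 3033 and 2534 in enterocyte-enriched versus Lgr5-enriched cells, where TPM gave 1549 and 4847, and 2553 and 2751 in goblet-enriched versus enterocyte-enriched cells, where TPM gave 3633 and 2054. Relative to the median of all genes, Atp6v0d1 stood at 1.53 in goblet-enriched versus Lgr5-enriched and 1.54 in enterocyte-enriched versus Lgr5-enriched cells, and Ctss at -1.39, 1.75 and -3.25 in the 3 comparisons, on the log2 scale. None of the 38 member calls changed direction under any setting tried.

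**Figure D1:**
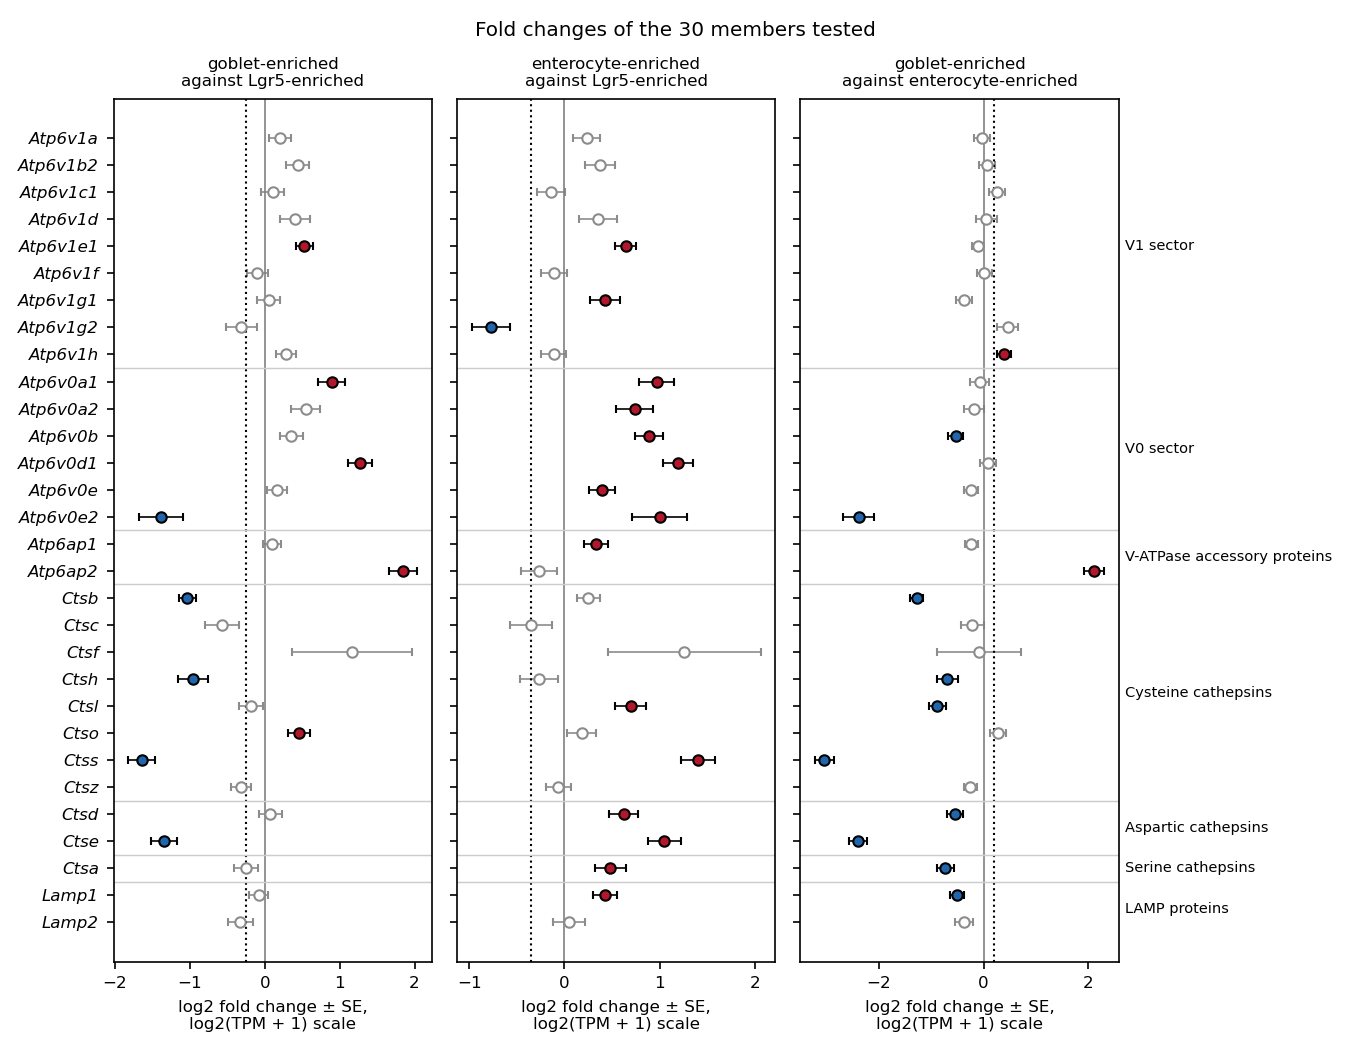
Fold change of each of the 30 members tested, on the log2(TPM + 1) scale (horizontal axis), with its standard error, in the 3 comparisons (panels). Filled red points were called higher and filled blue points lower (limma, adjusted p below 0.05), open points were not called, and the dotted line is the median of all tested genes. In the middle panel 15 of the 30 points are red, among them all 6 of the V0 sector.

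Several of these genes share a short element in the promoter. The palindrome CACGTG is the core of the CLEAR element, which the lysosomal regulators TFEB, TFE3 and MITF are known to bind, and TCACGTGA is its longer palindromic form. RefSeq promoter windows of 300 bases, from 250 before to 50 after the start on GRCm38.p6, were matched for 35 of the 47 members and for 22 of the 30 tested. CACGTG, which reads the same on both strands, was found in 9 of the 35, or 25.7%, beside 8.09% of the 27025 genes with a window. Among tested members with a window it was found in 40.9%, beside 11.7% of all tested genes. It stood in 7 of the 12 members with a window that were called higher in enterocyte-enriched versus Lgr5-enriched cells and in 2 of the other 10 tested. Of all genes called higher in that comparison, 9.80% held it. CACGTG was taken as a motif of lysosomal regulators, so a high share among lysosomal genes was likely beforehand. These shares were not tested. TCACGTGA, a subset of the same matches, was found in 5 members and in 1.12% of all genes. The stretches around the matches in these 9 members are shown, with the matched palindrome in capitals and the gene's strand in brackets. The other members with a window held no CACGTG.
Atp6v0b, chr4:117887322-117887385 (minus): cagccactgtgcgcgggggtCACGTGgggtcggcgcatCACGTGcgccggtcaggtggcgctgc
Atp6v0d1, chr8:105566041-105566088 (minus): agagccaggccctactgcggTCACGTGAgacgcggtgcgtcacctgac
Atp6v0e, chr17:26676378-26676425 (plus): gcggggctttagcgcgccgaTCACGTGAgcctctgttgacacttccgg
Atp6v1a, chr16:44139364-44139411 (minus): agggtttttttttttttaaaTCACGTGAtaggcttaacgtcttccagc
Ctsa, chr2:164833740-164833804 (plus): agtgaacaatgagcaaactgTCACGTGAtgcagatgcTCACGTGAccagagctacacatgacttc
Ctsd, chr7:142387899-142387946 (minus): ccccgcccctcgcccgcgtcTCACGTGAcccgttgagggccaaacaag
Ctsd, chr7:142388047-142388077 (minus): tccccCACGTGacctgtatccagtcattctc
Ctsf, chr19:4855066-4855111 (plus): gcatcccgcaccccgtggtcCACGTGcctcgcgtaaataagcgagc
Ctsl, chr13:64370731-64370770 (minus): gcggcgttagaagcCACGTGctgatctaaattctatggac
Lamp1, chr8:13159080-13159171 (plus): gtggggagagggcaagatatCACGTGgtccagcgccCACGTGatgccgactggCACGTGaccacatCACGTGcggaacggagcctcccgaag
A match is a description of these letters and not a binding site.

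All 6 tested V0 subunits of the Atp6v0 symbols were called higher in enterocyte-enriched versus Lgr5-enriched cells, where 12.0% of all tested genes were. Their median log2 fold change was 0.93. In goblet-enriched versus Lgr5-enriched cells 2 were called higher and 1 lower, and in goblet-enriched versus enterocyte-enriched cells 0 were called higher and 2 lower. All tested genes gave 10.7% higher and 23.6% lower, and 28.2% and 15.9%, in these comparisons. With median-of-ratios scaling and with the replicate block, 4 were called higher and 1 lower in goblet-enriched versus Lgr5-enriched cells. Over all 12888 tested genes that comparison gave 1839 higher and 1549 lower with the scaling, and 1794 and 4563 with the block. Tcirg1, a subunit a gene without an Atp6v0 symbol, was called lower in enterocyte-enriched versus Lgr5-enriched cells (log2 fold change -0.48, adjusted p = 0.0379). Atp6v0d1 (chr8:105524465-105566047) encodes the subunit that couples the membrane ring to the central stalk. Its levels were 188, 191 and 194 TPM in goblet-enriched, 188, 173 and 181 TPM in enterocyte-enriched and 62.1, 98.9 and 78.7 TPM in Lgr5-enriched libraries. Both differentiated populations lay well above all Lgr5-enriched libraries and overlapped each other. The log2 fold change against Lgr5-enriched cells was 1.27 (SE 0.16, adjusted p = 0.000493) for goblet-enriched and 1.19 (SE 0.16, adjusted p = 0.00046) for enterocyte-enriched cells. Atp6v0a1, an isoform of the subunit that forms the proton path, averaged 70.0 ± 8.31 TPM in goblet-enriched, 73.7 ± 10.2 in enterocyte-enriched and 37.5 ± 7.96 in Lgr5-enriched libraries (SD, n = 3 each). It was called higher against Lgr5-enriched cells in both, by 0.90 (SE 0.18, adjusted p = 0.00562) and 0.97 (SE 0.18, adjusted p = 0.0022).

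Atp6v0e2 (chr6:48537615-48541801) was the 1 Atp6v0 gene called lower in goblet-enriched versus Lgr5-enriched cells. It is the less abundant of a pair of genes for the small membrane subunit e. It was at 4.59, 9.40 and 8.65 TPM in goblet-enriched, 48.1, 46.7 and 33.3 TPM in enterocyte-enriched and 14.5, 26.3 and 22.7 TPM in Lgr5-enriched libraries. The populations did not overlap, with enterocyte-enriched libraries highest and goblet-enriched lowest. The log2 fold change was -1.39 (SE 0.29, adjusted p = 0.00699) in goblet-enriched versus Lgr5-enriched cells, 1.00 (SE 0.29, adjusted p = 0.0193) in enterocyte-enriched versus Lgr5-enriched cells and -2.39 (SE 0.29, adjusted p = 0.000296) in goblet-enriched versus enterocyte-enriched cells. The gain over Lgr5-enriched cells was no longer called without enterocyte-enriched replicate 1, enterocyte-enriched replicate 2 or Lgr5-enriched replicate 1 (adjusted p = 0.059 to 0.0638).

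Atp6v0b (chr4:117884326-117887333), a proteolipid of the rotating ring, was the highest V0 gene. It was at 178, 198 and 203 TPM in goblet-enriched, 275, 298 and 267 TPM in enterocyte-enriched and 123, 181 and 152 TPM in Lgr5-enriched libraries, so enterocyte-enriched libraries stood above all others and the remaining populations overlapped. It was called higher in enterocyte-enriched versus Lgr5-enriched cells, by 0.89 (SE 0.15, adjusted p = 0.00128), and lower in goblet-enriched versus enterocyte-enriched cells, by a log2 fold change of -0.53 (SE 0.15, adjusted p = 0.0176). The second call was lost without enterocyte-enriched replicate 2 (adjusted p = 0.06). Atp6v0a2 averaged 79.2 ± 18.9, 90.1 ± 17.5 and 53.2 ± 4.24 TPM in goblet-enriched, enterocyte-enriched and Lgr5-enriched libraries, and Atp6v0e averaged 144 ± 16.2, 169 ± 13.7 and 129 ± 15.0 TPM (SD, n = 3 each). Against Lgr5-enriched cells, enterocyte-enriched cells had log2 fold changes of 0.74 for Atp6v0a2 (adjusted p = 0.0106) and 0.40 for Atp6v0e (adjusted p = 0.0349). The Atp6v0e call was lost without goblet-enriched replicate 2, enterocyte-enriched replicate 1 or 2, or Lgr5-enriched replicate 2 or 3 (adjusted p = 0.0512 to 0.136). With the replicate number as a block, Atp6v0a2 (adjusted p = 0.0142) and Atp6v0b (adjusted p = 0.0342) were also called higher in goblet-enriched versus Lgr5-enriched cells.

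Atp6v0c, the main ring proteolipid that every cell's pump needs, is listed at 0 in all 9 libraries, as is its pseudogene Atp6v0c-ps2, with which it shares 7.84% of its 100-base stretches. A listed 0 can be a failed estimate, so the values of 0 given here and below do not show that a transcript was absent. Atp6v0d2 did not exceed 0.174 TPM in any library. Atp6v0a4, the isoform of subunit a known from kidney intercalated cells, was at 7.63, 0.980 and 0.471 TPM in goblet-enriched libraries, from 143, 17 and 8 reads, against 0 to 0.132 TPM in enterocyte-enriched and 0.0628 to 0.108 TPM in Lgr5-enriched libraries. Goblet-enriched replicate 1 holds most of its reads, and the gene did not pass the filter.

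**Figure D2:**
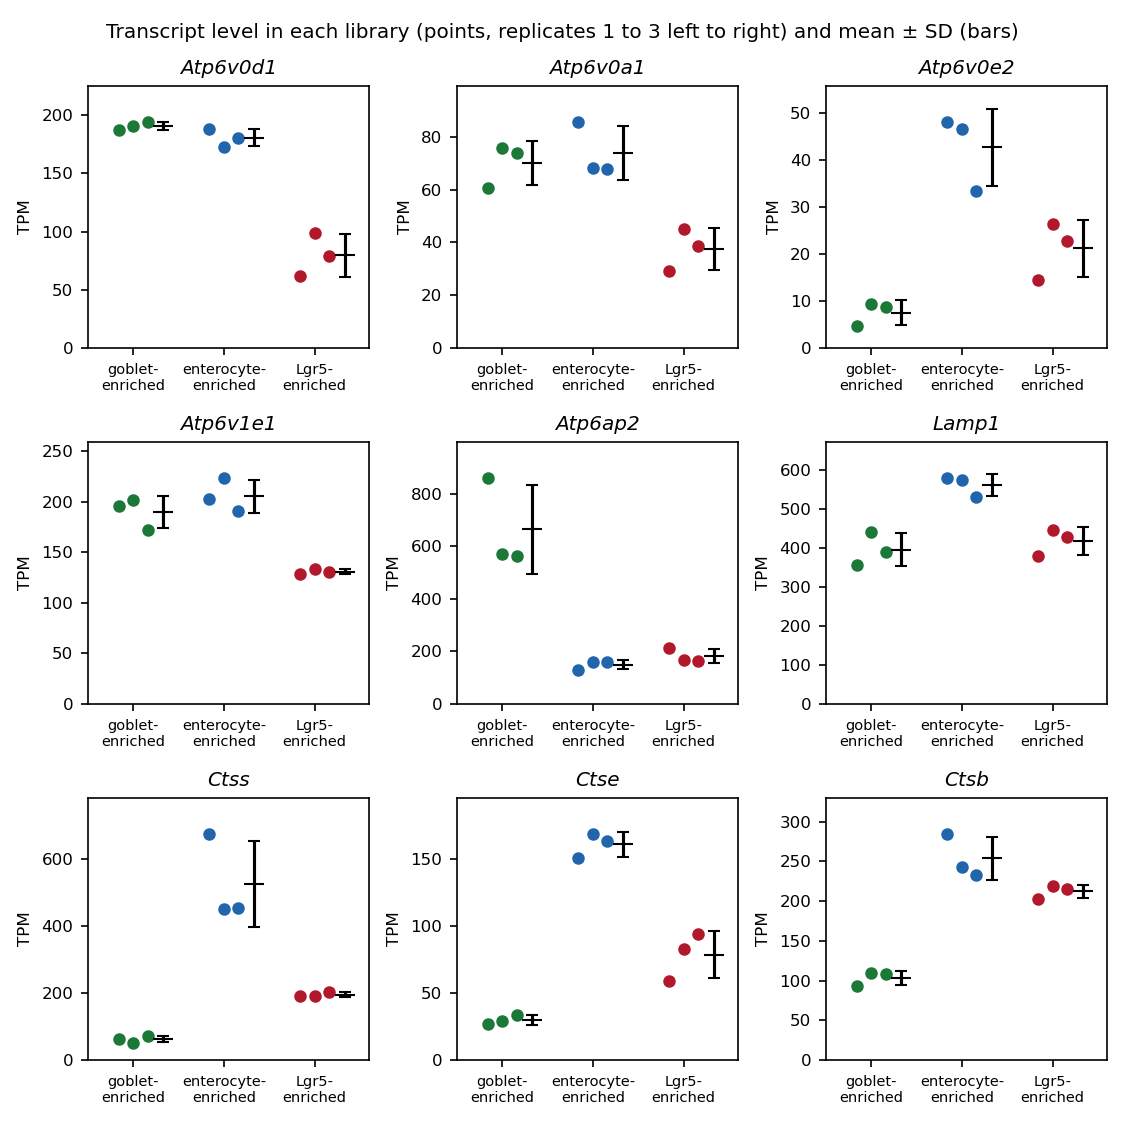
TPM of 9 members in each library (points; replicates 1 to 3 from left to right) with the mean and SD beside them (bars), in goblet-enriched, enterocyte-enriched and Lgr5-enriched populations. Atp6ap2 is highest in the 3 goblet-enriched libraries, Ctss and Ctse are highest in the 3 enterocyte-enriched libraries, and Atp6v0d1 is lowest in the 3 Lgr5-enriched libraries.

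The make-up of subunits with several isoforms was read as shares of their summed TPM. Atp6v0e2 gave 2.75, 6.44 and 6.12% of subunit e transcripts in goblet-enriched, 21.5, 20.7 and 17.9% in enterocyte-enriched and 9.51, 16.2 and 17.0% in Lgr5-enriched libraries. The populations did not overlap, at means of 5.10 ± 2.05, 20.0 ± 1.93 and 14.2 ± 4.11% (SD, n = 3 each). Tcirg1, which encodes the isoform of subunit a used by osteoclasts and carries no Atp6 symbol, made up 19.5, 24.5 and 30.1% of subunit a transcripts in goblet-enriched, 22.3, 23.4 and 26.9% in enterocyte-enriched and 46.3, 39.7 and 47.6% in Lgr5-enriched libraries. It was the leading isoform in each Lgr5-enriched library and in none of the others. Atp6v0a1 took 34.8 ± 5.65% in goblet-enriched and 34.2 ± 0.272% in enterocyte-enriched libraries, against 22.8 ± 3.77% in Lgr5-enriched libraries (SD, n = 3 each). Atp6v1g2 gave 4.41 ± 1.01, 2.34 ± 0.781 and 5.73 ± 0.546% of subunit G in the same order of populations (SD, n = 3 each). For shares without overlap the exact two-sided permutation test gave p = 0.1, the smallest that 3 libraries against 3 allow, and 0.214 after Benjamini-Hochberg adjustment over the 30 share comparisons made.

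**Figure D3:**
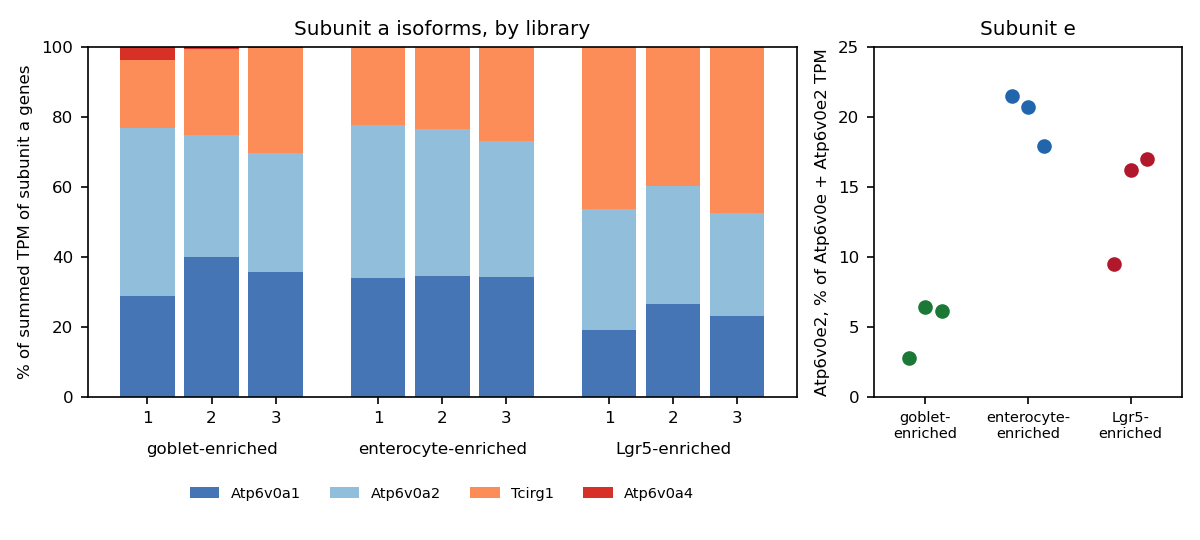
Left, percent of the summed TPM of the 4 subunit a genes from each isoform, in each library (stacked bars). Right, percent of subunit e TPM from Atp6v0e2 (points are libraries). Tcirg1 takes 39.7 to 47.6% in Lgr5-enriched libraries and 19.5 to 30.1% in the others.

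Of 9 tested V1 subunits, 1 was called higher in goblet-enriched versus Lgr5-enriched cells, where 10.7% of all tested genes were, and 2 were called higher in enterocyte-enriched versus Lgr5-enriched cells, where 12.0% of all genes were. In the second of these comparisons 1 was called lower, where 37.6% of all genes were. In goblet-enriched versus enterocyte-enriched cells 1 was called higher, where 28.2% of all genes were. With median-of-ratios scaling the counts became 3 higher and 0 lower, 5 higher and 0 lower, and 0 higher and 1 lower in the 3 comparisons. The median log2 fold changes of the 9 were 0.20, 0.23 and 0.05. Atp6v1e1 (chr6:120794305-120822793), part of the peripheral stalk, was at 196, 202 and 172 TPM in goblet-enriched, 202, 223 and 191 TPM in enterocyte-enriched and 128, 133 and 131 TPM in Lgr5-enriched libraries. Every library of the differentiated populations lay above every Lgr5-enriched library, by 0.53 (SE 0.11, adjusted p = 0.00687) for goblet-enriched and 0.64 (SE 0.11, adjusted p = 0.00151) for enterocyte-enriched cells on the log2 scale.

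Atp6v1g2, a stalk isoform better known from neurons, was at 4.11, 5.07 and 5.18 TPM in goblet-enriched, 3.34, 4.07 and 2.33 TPM in enterocyte-enriched and 6.34, 5.52 and 6.65 TPM in Lgr5-enriched libraries. It was called lower in enterocyte-enriched versus Lgr5-enriched cells (log2 fold change -0.77, SE 0.20, adjusted p = 0.0116), and the call was lost with median-of-ratios scaling (adjusted p = 0.123) and with quantile normalization (adjusted p = 0.274). Its paralog Atp6v1g1 averaged 106 ± 13.8, 139 ± 26.7 and 102 ± 6.46 TPM in goblet-enriched, enterocyte-enriched and Lgr5-enriched libraries (SD, n = 3 each). It was called higher in enterocyte-enriched versus Lgr5-enriched cells (log2 fold change 0.43, adjusted p = 0.0455). That call was lost when any single library other than goblet-enriched replicate 1 or enterocyte-enriched replicate 2 was left out (adjusted p = 0.0516 to 0.139), and the log2 fold change then went as low as 0.28. With the replicate block Atp6v1g1 was also called lower in goblet-enriched versus enterocyte-enriched cells (adjusted p = 0.013).

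Atp6v1h, a regulatory subunit that bridges the ATPase to the stalk, was at 110, 84.6 and 82.0 TPM in goblet-enriched, 70.1, 68.5 and 69.3 TPM in enterocyte-enriched and 81.8, 72.7 and 70.9 TPM in Lgr5-enriched libraries. Goblet-enriched libraries were above all others. The call in goblet-enriched versus enterocyte-enriched cells (log2 fold change 0.39, SE 0.13, adjusted p = 0.0393) was lost with median-of-ratios scaling (adjusted p = 0.322). It was also lost when any single library other than goblet-enriched replicate 3 or Lgr5-enriched replicate 1 was left out (adjusted p = 0.0556 to 0.097; lowest log2 fold change 0.26). Atp6v1f, a subunit of the central stalk and the highest V1 gene, was at 180, 168 and 178 TPM in goblet-enriched, 146, 203 and 176 TPM in enterocyte-enriched and 207, 170 and 188 TPM in Lgr5-enriched libraries, which overlapped throughout.

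The catalytic subunit gene Atp6v1a averaged 57.6 ± 11.6, 58.1 ± 2.07 and 49.3 ± 1.53 TPM in goblet-enriched, enterocyte-enriched and Lgr5-enriched libraries, and its partner in the ATPase head, Atp6v1b2, averaged 83.5 ± 1.74, 81.2 ± 19.2 and 61.4 ± 3.33 TPM (SD, n = 3 each). Neither was called in any comparison on the deposited scale. With median-of-ratios scaling, Atp6v1a was called higher in enterocyte-enriched versus Lgr5-enriched cells (adjusted p = 0.0111), and Atp6v1b2 was called higher there (adjusted p = 0.00721) and in goblet-enriched versus Lgr5-enriched cells (adjusted p = 0.0249). Atp6v1c1, a stalk subunit, averaged 53.9 ± 7.43, 44.9 ± 2.70 and 50.0 ± 8.02 TPM, and Atp6v1d, of the central rotor, 68.9 ± 14.0, 67.0 ± 17.8 and 51.3 ± 5.07 TPM (SD, n = 3 each). With the replicate block, goblet-enriched versus Lgr5-enriched cells gave calls for Atp6v1b2 (adjusted p = 0.0411) and Atp6v1d (adjusted p = 0.0195), and enterocyte-enriched versus Lgr5-enriched cells for Atp6v1d (adjusted p = 0.0257), each higher. The other isoforms of V1 subunits were near or at 0: Atp6v1b1 reached 0.108 TPM, Atp6v1c2 0.970 TPM in goblet-enriched replicate 3, and Atp6v1e2 0.353 TPM, while Atp6v1g3 is listed at 0 in every library.

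Atp6ap2 (chrX:12587801-12617049), the accessory protein also known as the prorenin receptor, had the largest increase of any member tested in goblet-enriched cells, against either other population. It was at 859, 571 and 561 TPM in goblet-enriched, 131, 158 and 161 TPM in enterocyte-enriched and 213, 168 and 164 TPM in Lgr5-enriched libraries. All goblet-enriched libraries lay far above the rest, and replicate 1 was the highest of them. The log2 fold change was 1.85 (SE 0.19, adjusted p = 0.000188) in goblet-enriched versus Lgr5-enriched cells and 2.12 (SE 0.19, adjusted p = 7.17e-05) in goblet-enriched versus enterocyte-enriched cells, a ratio of means of 3.66 and 4.42. Without goblet-enriched replicate 1 or any other single library these log2 fold changes stayed at 1.65 or more and 1.92 or more.

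Atp6ap1 (chrX:74297097-74304721), the accessory subunit inside the V0 ring, was at 119, 121 and 124 TPM in goblet-enriched, 162, 138 and 131 TPM in enterocyte-enriched and 101, 121 and 120 TPM in Lgr5-enriched libraries. It was called higher in enterocyte-enriched versus Lgr5-enriched cells (log2 fold change 0.33, SE 0.12, adjusted p = 0.0494). The call was lost when any single library other than goblet-enriched replicate 1 was left out (adjusted p = 0.0518 to 0.147). Atp6ap1, Atp6ap2 and Lamp2 lie on the X chromosome, and the enterocyte-enriched library with male transcripts had the highest Atp6ap1 and Lamp2 and the lowest Atp6ap2 of its population. Atp6ap1l is listed at 0 in all libraries.

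Among the 8 cysteine cathepsins tested, 1 was called higher and 3 lower in goblet-enriched versus Lgr5-enriched cells, 2 were called higher and 0 lower in enterocyte-enriched versus Lgr5-enriched cells, and 0 were called higher and 4 lower in goblet-enriched versus enterocyte-enriched cells. All tested genes gave 10.7% higher and 23.6% lower, 12.0% and 37.6%, and 28.2% and 15.9%. Ctss (chr3:95526786-95556403) encodes cathepsin S, which stays active at neutral pH and trims the invariant chain of MHC class II in antigen-presenting cells. It was at 64.1, 51.4 and 70.9 TPM in goblet-enriched, 673, 449 and 454 TPM in enterocyte-enriched and 191, 191 and 203 TPM in Lgr5-enriched libraries. The populations were far apart without overlap, with goblet-enriched libraries lowest and enterocyte-enriched highest. Its log2 fold change was -1.64 (SE 0.18, adjusted p = 0.000262) in goblet-enriched versus Lgr5-enriched cells and 1.40 (SE 0.18, adjusted p = 0.000419) in enterocyte-enriched versus Lgr5-enriched cells. In goblet-enriched versus enterocyte-enriched cells it was -3.05 (SE 0.18, adjusted p = 2.37e-05), the largest change of any member tested in any comparison.

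Ctss is also abundant in macrophages, and some macrophage transcripts were uneven between the enterocyte-enriched libraries. Lyz2 was at 232, 133 and 12.9 TPM in enterocyte-enriched replicates 1 to 3, with 0.166 to 11.5 TPM in goblet-enriched and 0 to 12.7 TPM in Lgr5-enriched libraries. C1qa, C1qb and C1qc, which mark tissue macrophages, were at 3.27, 4.90 and 8.68 TPM in enterocyte-enriched replicate 1, at 2.14, 1.77 and 2.20 TPM in replicate 2, and at 0.322, 0.328 and 0.331 TPM in replicate 3. Ctss was at 673, 449 and 454 TPM in the same 3 libraries. Cd74, the invariant chain gene, was at 3094, 79.8 and 130 TPM in enterocyte-enriched replicates 1 to 3. It was at 2811, 207.3 and 370.5 TPM in Lgr5-enriched and 1095, 48.6 and 75.9 TPM in goblet-enriched replicates. H2-Aa, H2-Ab1 and Ciita, also of MHC class II, were likewise highest in replicate 1 of each population. None of these was called in any comparison, and their relation to Ctss was not tested. The 5 macrophage markers past the filter differed in enterocyte-enriched versus Lgr5-enriched cells. Lyz2 and Tyrobp were called higher (log2 fold change 3.87 and 2.22). Itgam, Cd68 and Cd14 were not called (0.21, -0.20 and -0.63). A fit without enterocyte-enriched replicates 1 and 2 was chosen after the values were seen. In it the log2 fold change of Ctss was 1.22 in enterocyte-enriched versus Lgr5-enriched cells, beside 1.40 with all libraries. In goblet-enriched versus enterocyte-enriched cells it was -2.86, beside -3.05. The comparison of goblet-enriched with Lgr5-enriched cells holds neither of the libraries left out, so its fold change could not move. With those libraries left out, 1 enterocyte-enriched library remains and is assumed to vary like the other populations. Fewer genes were then called, among members and over all genes. The median log2 fold change of the 30 members in enterocyte-enriched versus Lgr5-enriched cells was 0.23 there, beside 0.39 with all libraries.

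The promoter of Ctss held no CACGTG. Its 300 bases are shown because Ctss had the largest changes, with the one match to GAAANNGAAA, the core of the interferon-stimulated response element, in capitals. That motif was searched on both strands after the sequence had been seen, and it occurs in 3.99% of all genes' windows and in 5 of the 35 members' windows (Atp6v1d, Ctso, Ctss, Lamp1 and Lamp3).
Ctss, chr3:95526536-95526835 (plus): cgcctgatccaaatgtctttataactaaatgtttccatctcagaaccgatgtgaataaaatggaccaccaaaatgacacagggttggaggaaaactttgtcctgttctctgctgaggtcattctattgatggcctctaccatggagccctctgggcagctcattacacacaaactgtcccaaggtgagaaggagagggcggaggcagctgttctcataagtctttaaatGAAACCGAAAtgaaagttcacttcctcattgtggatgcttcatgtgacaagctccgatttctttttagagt

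Ctsb (chr14:63122462-63145923), a broad endo- and exopeptidase, was at 93.6, 109 and 108 TPM in goblet-enriched, 284, 244 and 234 TPM in enterocyte-enriched and 203, 218 and 215 TPM in Lgr5-enriched libraries. Goblet-enriched libraries were below all others, with a ratio of means of 0.488 to Lgr5-enriched and 0.408 to enterocyte-enriched libraries. The log2 fold changes were -1.03 (SE 0.12, adjusted p = 0.000338) and -1.28 (SE 0.12, adjusted p = 7.89e-05), and with median-of-ratios scaling they were -0.81 and -1.47. Ctsb shares 11.4% of its 100-base stretches with Fdft1, which runs on the opposite strand.

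Ctsh, an aminopeptidase, averaged 57.1 ± 2.78, 94.7 ± 22.7 and 113 ± 22.6 TPM in goblet-enriched, enterocyte-enriched and Lgr5-enriched libraries (SD, n = 3 each). It was called lower in goblet-enriched versus Lgr5-enriched cells (log2 fold change -0.96, adjusted p = 0.00695) and against enterocyte-enriched cells (log2 fold change -0.69, adjusted p = 0.0214). The second call was lost without goblet-enriched replicate 1 or 3 or enterocyte-enriched replicate 2 or 3 (adjusted p = 0.0503 to 0.0762). Ctsl, another endopeptidase, averaged 65.0 ± 10.3, 121 ± 20.5 and 73.8 ± 7.62 TPM (SD, n = 3 each) and was called higher in enterocyte-enriched versus Lgr5-enriched cells, by 0.70 (adjusted p = 0.00662), and lower in goblet-enriched versus enterocyte-enriched cells, by a log2 fold change of -0.89 (adjusted p = 0.00246). It shares 23.5% of its 100-base stretches with an antisense gene. Ctso averaged 20.7 ± 0.926, 17.0 ± 1.72 and 14.9 ± 2.20 TPM (SD, n = 3 each). Its call as higher in goblet-enriched versus Lgr5-enriched cells (log2 fold change 0.46, adjusted p = 0.0447) was lost when any single library other than enterocyte-enriched replicate 1 was left out (adjusted p = 0.0548 to 0.112).

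Ctsc, which activates granule serine proteases in immune cells, was at 126, 76.3 and 73.9 TPM in goblet-enriched, 114, 94.9 and 105 TPM in enterocyte-enriched and 167, 116 and 122 TPM in Lgr5-enriched libraries. Replicate 1 was the highest in every population. Ctsf was at 2.84, 23.2 and 9.31 TPM, 6.32, 12.0 and 11.2 TPM, and 0.291, 7.52 and 6.65 TPM in the same order, with replicate 1 the lowest in every population. Neither was called, and with the replicate block both were called against Lgr5-enriched cells: Ctsc lower in goblet-enriched (adjusted p = 0.0086) and enterocyte-enriched cells (adjusted p = 0.0449), and Ctsf higher in both (adjusted p = 0.0438 and 0.0272). Ctsz averaged 146 ± 3.56, 175 ± 30.0 and 182 ± 6.96 TPM (SD, n = 3 each) and was not called. Ctsk, the osteoclast collagenase, and Ctsw, of cytotoxic lymphocytes, did not exceed 0.657 and 1.01 TPM in any library. Ctsj, Ctsm, Ctsq and Ctsr, a mouse cluster on chromosome 13 known from placenta, are listed at 0.

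Both aspartic cathepsins were called higher in enterocyte-enriched versus Lgr5-enriched cells, where 12.0% of all tested genes were. Both were also called lower in goblet-enriched versus enterocyte-enriched cells, where 15.9% of all genes were. Ctse (chr1:131638306-131675505), an endosomal protease of epithelial and immune cells, was at 26.7, 28.9 and 33.9 TPM in goblet-enriched, 151, 168 and 163 TPM in enterocyte-enriched and 59.2, 82.5 and 93.8 TPM in Lgr5-enriched libraries. The order matched that of Ctss, without overlap between populations. The log2 fold changes were -1.35 (SE 0.17, adjusted p = 0.000624) in goblet-enriched versus Lgr5-enriched cells, 1.05 (SE 0.17, adjusted p = 0.00125) in enterocyte-enriched versus Lgr5-enriched cells and -2.40 (SE 0.17, adjusted p = 3.87e-05) in goblet-enriched versus enterocyte-enriched cells. Ctsd (chr7:142375911-142388038), the main lysosomal aspartic protease, was at 254, 298 and 284 TPM in goblet-enriched, 438, 415 and 369 TPM in enterocyte-enriched and 217, 302 and 280 TPM in Lgr5-enriched libraries. Enterocyte-enriched libraries stood above the others by 0.62 against Lgr5-enriched cells (SE 0.15, adjusted p = 0.00769), and goblet-enriched versus enterocyte-enriched cells gave -0.54 (SE 0.15, adjusted p = 0.0164). Ctsd shares 30.2% of its 100-base stretches with Gm49369, an annotated gene on the same strand.

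Ctsa (chr2:164832873-164841032), a serine carboxypeptidase that also protects lysosomal sialidase and galactosidase, was at 59.3, 74.4 and 78.9 TPM in goblet-enriched, 119, 116 and 118 TPM in enterocyte-enriched and 66.5, 92.6 and 95.3 TPM in Lgr5-enriched libraries. The enterocyte-enriched libraries lay close together above all others. The log2 fold change was 0.48 (SE 0.16, adjusted p = 0.0347) in enterocyte-enriched versus Lgr5-enriched cells and -0.73 (SE 0.16, adjusted p = 0.0066) in goblet-enriched versus enterocyte-enriched cells. The first call was lost without any 1 of the enterocyte-enriched libraries or without Lgr5-enriched replicate 1 (adjusted p = 0.0748 to 0.0946; lowest log2 fold change 0.32). Ctsg, a protease of neutrophil and mast cell granules, is listed at 0 in all libraries.

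Lamp1 (chr8:13159161-13175338), the most abundant member, was at 356, 441 and 391 TPM in goblet-enriched, 580, 576 and 531 TPM in enterocyte-enriched and 379, 447 and 428 TPM in Lgr5-enriched libraries. Enterocyte-enriched libraries were above all others, and the remaining populations overlapped. The log2 fold change was 0.43 (SE 0.13, adjusted p = 0.0194) in enterocyte-enriched versus Lgr5-enriched cells and -0.51 (SE 0.13, adjusted p = 0.0105) in goblet-enriched versus enterocyte-enriched cells. The first call was lost without enterocyte-enriched replicate 2, Lgr5-enriched replicate 1 or Lgr5-enriched replicate 3 (adjusted p = 0.051 to 0.0598) and with quantile normalization (adjusted p = 0.113). Lamp2, also a receptor for chaperone-mediated autophagy, averaged 51.0 ± 8.56, 66.2 ± 6.89 and 64.4 ± 10.9 TPM (SD, n = 3 each) and was not called. With the replicate block Lamp2 was called lower in goblet-enriched cells, against Lgr5-enriched (adjusted p = 0.0174) and against enterocyte-enriched cells (adjusted p = 0.0082). Lamp3, of dendritic cells, did not exceed 0.809 TPM.

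The other genes of the pathway were read as lists of pump partners, lysosomal hydrolases, membrane proteins, sorting factors, cathepsin inhibitors and regulators. Of 13 pump partners and assembly factors tested, 1 was called higher and 1 lower in goblet-enriched versus Lgr5-enriched cells, 2 higher and 4 lower in enterocyte-enriched versus Lgr5-enriched cells, and 4 higher and 1 lower in goblet-enriched versus enterocyte-enriched cells. The shares of all tested genes called higher and lower were 10.7% and 23.6%, 12.0% and 37.6%, and 28.2% and 15.9% in that order. Rnasek, a small protein that associates with the pump, had a log2 fold change of 0.78 (adjusted p = 0.00104) and Tcirg1 of -0.55 (adjusted p = 0.0314) in goblet-enriched versus Lgr5-enriched cells. Tldc2, of the TLDc family that includes regulators of the pump, stood at 1.97 ± 1.47 TPM in goblet-enriched, 32.8 ± 5.73 in enterocyte-enriched and 5.17 ± 4.27 in Lgr5-enriched libraries (SD, n = 3 each). Its log2 fold change was 2.75 (adjusted p = 0.0037) in enterocyte-enriched versus Lgr5-enriched cells, where Tmem9, a lysosomal protein that binds the pump, was at -1.03 (adjusted p = 0.00114). In goblet-enriched versus enterocyte-enriched cells Tldc2 was at -3.61 (adjusted p = 0.00111) and the assembly factor Vma21 at 0.80 (adjusted p = 0.0168).

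Among 38 lysosomal hydrolases and activators tested, 4 were called higher and 5 lower in goblet-enriched versus Lgr5-enriched cells, 10 higher and 7 lower in enterocyte-enriched versus Lgr5-enriched cells, and 4 higher and 11 lower in goblet-enriched versus enterocyte-enriched cells. All tested genes gave 10.7% higher and 23.6% lower, 12.0% and 37.6%, and 28.2% and 15.9%. Gm2a, the activator of ganglioside breakdown, and the carboxypeptidase Scpep1 had log2 fold changes of -2.14 and -1.79 in goblet-enriched versus Lgr5-enriched cells (adjusted p = 0.000848 and 6.79e-05). The sialidase Neu1 averaged 23.8 TPM in goblet-enriched, 89.9 TPM in enterocyte-enriched and 20.8 TPM in Lgr5-enriched libraries, with a log2 fold change of 2.02 in enterocyte-enriched versus Lgr5-enriched cells (SE 0.35, adjusted p = 0.00145) and -1.88 in goblet-enriched versus enterocyte-enriched cells (SE 0.35, adjusted p = 0.00251). The acid lipase Lipa averaged 4.34, 26.2 and 5.42 TPM in the same order, with 1.98 (SE 0.32, adjusted p = 0.00106) and -2.28 (SE 0.32, adjusted p = 0.000549). With median-of-ratios scaling the hydrolase counts became 10 higher and 2 lower, 21 higher and 4 lower, and 1 higher and 14 lower. With the replicate block they were 7 higher and 9 lower, 13 higher and 8 lower, and 8 higher and 17 lower. Calls over all 12888 tested genes rose with the block as well. They went from 1384 higher and 3039 lower to 1794 and 4563, from 1549 and 4847 to 2050 and 5841, and from 3633 and 2054 to 4683 and 2653.

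Of 22 lysosomal membrane proteins tested, 2 were called higher and 1 lower in goblet-enriched versus Lgr5-enriched cells, 7 higher in enterocyte-enriched versus Lgr5-enriched cells, and 3 higher and 4 lower in goblet-enriched versus enterocyte-enriched cells. Shares over all tested genes were 10.7% higher and 23.6% lower, 12.0% and 37.6%, and 28.2% and 15.9%. Abcb9, a lysosomal peptide transporter, averaged 18.8 TPM in goblet-enriched, 5.51 TPM in enterocyte-enriched and 2.90 TPM in Lgr5-enriched libraries, with log2 fold changes of 2.35 (SE 0.29, adjusted p = 0.000464) against Lgr5-enriched and 1.57 (SE 0.29, adjusted p = 0.0024) against enterocyte-enriched cells. Cd63, a tetraspanin of late endosomes, was at 0.74 (adjusted p = 0.00566) in goblet-enriched versus Lgr5-enriched cells. The cystine exporter Ctns (log2 fold change 1.00, adjusted p = 0.002) and the membrane transporter Mfsd8 (0.91, adjusted p = 0.00447) led in enterocyte-enriched versus Lgr5-enriched cells, and the channel Mcoln2 was at 1.05 (adjusted p = 0.00455) in goblet-enriched versus enterocyte-enriched cells.

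Of 16 genes that sort enzymes to the lysosome, 1 was called higher and 4 lower in goblet-enriched versus Lgr5-enriched cells, 2 higher and 6 lower in enterocyte-enriched versus Lgr5-enriched cells, and 2 higher and 2 lower in goblet-enriched versus enterocyte-enriched cells. Shares over all tested genes were 10.7% higher and 23.6% lower, 12.0% and 37.6%, and 28.2% and 15.9%. The sorting counts in enterocyte-enriched versus Lgr5-enriched cells lie near the shares of all genes. The adaptor Gga2 averaged 21.5 TPM in goblet-enriched, 2.83 TPM in enterocyte-enriched and 11.6 TPM in Lgr5-enriched libraries. Its log2 fold change was 0.85 (adjusted p = 0.0267) in goblet-enriched versus Lgr5-enriched, -1.73 (adjusted p = 0.000635) in enterocyte-enriched versus Lgr5-enriched and 2.58 (adjusted p = 9.06e-05) in goblet-enriched versus enterocyte-enriched cells. Gnptab, which makes the mannose 6-phosphate tag, was at -0.74 (adjusted p = 0.0104) in goblet-enriched versus Lgr5-enriched cells, and Igf2r, the larger receptor of that tag, at -0.95 (adjusted p = 0.00467) in enterocyte-enriched versus Lgr5-enriched cells. The adaptor subunit Ap1s3 was at -1.24 (adjusted p = 0.000251) in goblet-enriched versus enterocyte-enriched cells. With median-of-ratios scaling the sorting counts became 2 higher and 1 lower, 7 higher and 3 lower, and 2 higher and 2 lower, and with the replicate block 1 higher and 5 lower, 2 higher and 6 lower, and 3 higher and 2 lower. The block gave 1794 higher and 4563 lower, 2050 and 5841, and 4683 and 2653 over all 12888 tested genes.

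Among 5 cathepsin inhibitors tested, 2 were called lower in goblet-enriched versus Lgr5-enriched cells, 4 higher in enterocyte-enriched versus Lgr5-enriched cells and 4 lower in goblet-enriched versus enterocyte-enriched cells. The shares of all tested genes called in these directions were 23.6%, 12.0% and 15.9%. With median-of-ratios scaling 1 was called lower, 5 higher and 4 lower in these comparisons. Serpinb1a, an inhibitor of granule serine proteases including cathepsin G, averaged 105 TPM in goblet-enriched, 683 TPM in enterocyte-enriched and 172 TPM in Lgr5-enriched libraries. Its log2 fold changes were -0.71 (SE 0.24, adjusted p = 0.043), 1.93 (SE 0.24, adjusted p = 0.000345) and -2.65 (SE 0.24, adjusted p = 7.01e-05) in goblet-enriched versus Lgr5-enriched, enterocyte-enriched versus Lgr5-enriched and goblet-enriched versus enterocyte-enriched cells. Serpinb6a, another intracellular serpin, was at -0.62 (adjusted p = 0.00445) in goblet-enriched versus Lgr5-enriched cells. Csta1, of the stefins that block cysteine cathepsins, was at 3.28, 1.11 and 1.21 TPM in enterocyte-enriched libraries and is listed at 0 in all goblet-enriched and Lgr5-enriched libraries. Csta1 thus passed the filter only through enterocyte-enriched libraries. It is 1 of the 4 inhibitors called in each comparison with enterocyte-enriched cells, and these calls are not independent of the filter.

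Of 14 lysosomal regulators tested, 3 were called higher in goblet-enriched versus Lgr5-enriched cells, 1 higher and 2 lower in enterocyte-enriched versus Lgr5-enriched cells, and 4 higher and 2 lower in goblet-enriched versus enterocyte-enriched cells. All tested genes gave 10.7% higher and 23.6% lower, 12.0% and 37.6%, and 28.2% and 15.9%. Mitf, the only one of Tfeb, Tfe3 and Mitf to be called in these comparisons, was at 3.73, 2.56 and 3.40 TPM in goblet-enriched, 0.522, 0.840 and 0.707 TPM in enterocyte-enriched and 0.296, 0.757 and 0.411 TPM in Lgr5-enriched libraries. Its log2 fold changes were 1.51 (SE 0.21, adjusted p = 0.00102) in goblet-enriched versus Lgr5-enriched and 1.32 (SE 0.21, adjusted p = 0.00132) in goblet-enriched versus enterocyte-enriched cells. Only in goblet-enriched libraries did Mitf reach 1 TPM, so it passed the filter through the population where it was high. The Mitf calls are therefore not independent of the filter. Mitf is also a factor of mast cells. The mast cell chymase Cma1 was at 48.6, 18.1 and 14.0 TPM in goblet-enriched, 11.0, 4.85 and 5.51 TPM in enterocyte-enriched and 0.445, 0.767 and 0.330 TPM in Lgr5-enriched libraries. Cma1 was the only 1 of 10 mast cell and neutrophil markers to pass the filter. All 10 together summed to 49.1, 19.7 and 18.1 TPM in goblet-enriched libraries, most of it Cma1, and Cpa3 and Mpo are listed at 0 in all. A part of mast cells in the Mitf values was not tested. Slc38a9, the lysosomal arginine sensor, was at 1.69 (adjusted p = 0.000183) and 1.71 (adjusted p = 0.00012) in the same comparisons. Fnip1 and Rraga, parts of nutrient sensing at the lysosome, were at -0.76 (adjusted p = 0.0376) and -0.48 (adjusted p = 0.0256) in enterocyte-enriched versus Lgr5-enriched cells.

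The counts of the pump partners, membrane proteins and regulators moved with the fit too. With the replicate block, calls in goblet-enriched versus Lgr5-enriched, enterocyte-enriched versus Lgr5-enriched and goblet-enriched versus enterocyte-enriched cells were 2 higher and 4 lower, 2 and 6, and 5 and 2 for the pump partners. They were 4 higher and 2 lower, 7 and 2, and 5 and 7 for the membrane proteins, and 4 higher and 1 lower, 3 and 3, and 5 and 3 for the regulators. For all 12888 tested genes the block gave 1794 higher and 4563 lower, 2050 and 5841, and 4683 and 2653, with more calls in each than the main fit. With median-of-ratios scaling the pump partners gave 3 higher and 0 lower, 3 and 1, and 1 and 1, the membrane proteins 5 and 0, 11 and 0, and 3 and 6, and the regulators 4 and 0, 4 and 0, and 3 and 4.

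**Figure D4:**
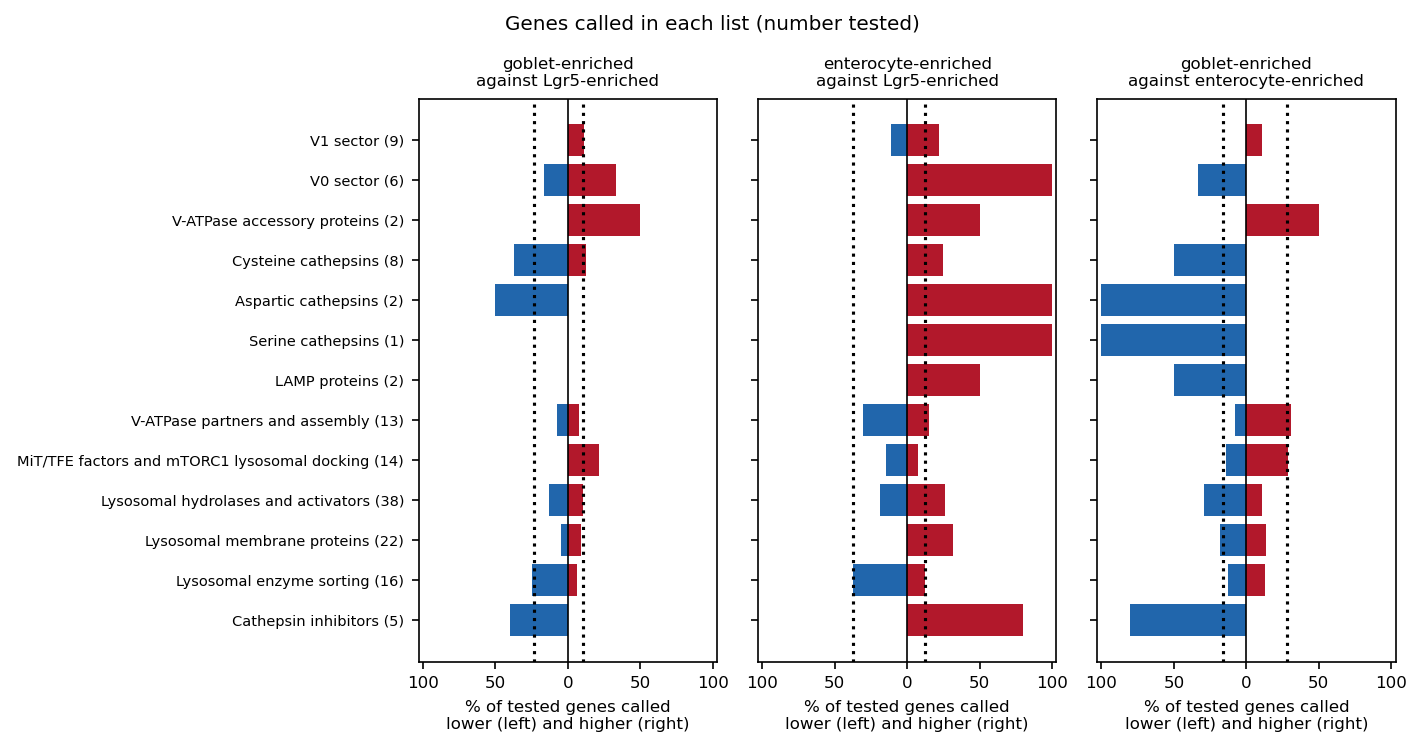
Percent of the tested genes of each list called higher (red, to the right) and lower (blue, to the left) in the 3 comparisons (panels), with the number tested in brackets. Dotted lines are the percent of all 12888 tested genes called in that direction, such as 12.0% higher and 37.6% lower in enterocyte-enriched versus Lgr5-enriched cells.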

How the data were processed

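Messenger RNA was measured in 9 libraries made with a stranded poly-A kit, per the labels' protocols. The deposited table holds log2 values made by the authors, 1 per gene and library, and 0 per-sample columns were left unused. Values of 0 and above are log2(TPM), and below 0 adding 1 gives TPM, after which each library sums to 1000000. Cufflinks and mm10 are named in the submitters' processing notes. The use of strand in counting, like the aligner and annotation, was not given in the sources used here, so overlapping antisense genes are uncertain. Dividing TPM by the value of 1 read gave whole numbers for 99.95% of 18396 genes within 1e-06 of a read. These reads were used for depth and for the reads behind Atp6v0a4, and were not tested.

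Tests used limma 3.58.1 in R 4.3.3 (moderated fit with trend) on log2(TPM + 1), 1 mean per population, for genes at 1 TPM or more in at least 3 libraries. Such fold changes understate the change of low genes. Same-numbered libraries deviated together from their population means (correlations 0.194 to 0.601, against -0.520 to 0.166 for other pairs), and the series text gives 3 mice, so the replicate number was also fitted as a block. However, enterocyte-enriched replicate 1 carries male transcripts and the other replicate 1 libraries do not. Alternatives covered the pseudocount (0.1), the filter (none, or 5 TPM), median-of-ratios and quantile scaling, array weights, fits of 6 libraries and left-out libraries.

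Values in every library were given, within each role, for the called member with the largest change in each comparison, for members called in at least 2 comparisons with a log2 fold change of 1 or more, and for the highest member, with Atp6v0a1, Atp6v0a4, Ctsc and Ctsf added after their values were seen. For other lists the 2 called genes with the largest change per comparison were named. The members, lists and motifs were chosen with earlier results of these data known. Shared stretches were counted in 100-base windows of GENCODE vM21 transcripts on mm10.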

Additional observations from a re-analysis of the deposited data

How the results depend on the processing

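Of the 38 member calls, 18 held under all 19 alternatives (18 chosen at the outset and 1 added), and 0 changed direction. Members called higher in goblet-enriched versus Lgr5-enriched cells were 5, but 9 with median-of-ratios scaling, 8 with quantile normalization, 10 with the replicate block and 11 with array weights, and the 5 lower became 9 with array weights and 8 without replicate 1 of all 3 populations. Over all genes the 1384 higher became 1883 with quantile normalization, 1794 with the replicate block and 1950 with array weights. The 3039 lower over all genes became 5661 with array weights and 4176 without replicate 1 of all 3 populations. In enterocyte-enriched versus Lgr5-enriched cells the 15 higher became 4 without enterocyte-enriched replicates 1 and 2, an alternative added after the data were seen. The 1 lower became 0 with median-of-ratios and with quantile scaling in limma (0 also at an unadjusted p below 0.05) and 2 with the replicate block. Over all genes the 4847 lower in that comparison became 5841 with the replicate block. In goblet-enriched versus enterocyte-enriched cells the 2 higher became 1 with median-of-ratios scaling, with only the 6 libraries compared and without enterocyte-enriched replicates 1 and 2, 3 with array weights and 3 without replicate 1 of all 3 populations, and the 10 lower became 5 without enterocyte-enriched replicates 1 and 2. Over all genes the 3633 higher in goblet-enriched versus enterocyte-enriched cells became 4526 with array weights and 3798 without replicate 1 of all 3 populations. Without enterocyte-enriched replicates 1 and 2, calls over all genes fell as well, with 1 enterocyte-enriched library left. The F test's 16 became 25 with array weights and 24 with the replicate block. For all genes its 8136 calls became 10383 and 9761. Leaving out 1 library gave 4 to 7 higher and 5 to 6 lower in goblet-enriched versus Lgr5-enriched cells, 10 to 15 higher and 1 to 1 lower in enterocyte-enriched versus Lgr5-enriched cells, 1 to 2 higher and 8 to 11 lower in goblet-enriched versus enterocyte-enriched cells, and 14 to 20 by the F test. Beyond the calls gained under the block that stand beside their genes, the block changed no other member call, and it ended 0 of the 38. The cause of these shifts was not tested. Members under 1 TPM entered only the fit without a filter, where the 38 members above 0 gave 4 higher and 5 lower, 14 higher and 1 lower, and 2 higher and 10 lower calls.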
